A study of Zea mays with 12 samples.

Results

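The basal endosperm transfer layer (BETL) of the maize kernel was compared at 20 and 8 days after pollination (DAP), the late and early ends of the sampled span. The comparison uses 4 of the 12 libraries of the series, 2 at each age, chosen by their labels for tissue and age. The remaining libraries are BETL at 14 DAP and the maternal transfer zone (MATZ), the mother's tissue facing the layer, at 8, 14 and 20 DAP, with 2 libraries each. All 12 came from wild-type kernels of the inbred line W22, on ears of plants grown in the field, and the tissues were cut apart while frozen. Whether replicate libraries stem from different plants or ears is not stated in the labels, and their spread may be technical.

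The transfer layer is the part of the endosperm through which sugars, amino acids and minerals enter the seed. Its cells develop dense ingrowths of the wall that enlarge the plasma membrane, and they make large amounts of small secreted proteins encoded by the betl and bap genes. A cell wall invertase, the product of mn1, splits incoming sucrose there. The rest of the endosperm meanwhile stops dividing and fills with starch and zein storage proteins.

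Levels are FPKM (fragments per kilobase of transcript scaled to library size) of each library, replicate 1 before replicate 2. A change is the difference at 20 DAP minus 8 DAP on the log2(FPKM + 1) scale, given ± its standard error (SE), and it understates the change of low genes. Genes were called where limma's p, adjusted by Benjamini-Hochberg over all 24213 genes tested, was under 0.05, and "rose" and "fell" are used of called genes only. A fold is the ratio of the 2 group means in FPKM. In dissected tissue, fewer cells of a type and less RNA per cell cannot be told apart.

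The 8 DAP libraries held fewer detected genes, 12609 and 15220 above 0, than the 14 DAP libraries at 16448 and 20902 or the 20 DAP libraries at 21309 and 20768. Column totals over the 12 libraries ran from 731024 to 987477 FPKM. Among genes at 10 FPKM or more in the other replicate, 8.91% and 5.96% were listed at 0 in the 8 DAP libraries, and 0.327% and 0.304% in the 20 DAP libraries. A listed 0 can therefore be a missed or failed estimate, no fold is given against a group listed at 0, and the part of detection in the rises was not tested. The replicate SD of genes at 100 FPKM or more was 0.185 (log2) at 8 DAP and 0.151 at 20 DAP.

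More genes were called higher at 20 DAP than lower. Of the 24213 genes tested, 2775 were called (11.5%): 1940 were higher (8.01%) and 835 lower (3.45%). Of the 1940 genes that rose, 906 were listed at 0 in both 8 DAP libraries and 321 in 1 of them, so 713 were above 0 throughout that age. The libraries of the 2 ages did not overlap in 45.1% of tested genes for a rise and in 12% for a fall, so such separation alone is common here. Of the 835 that fell, 124 were listed at 0 in both 20 DAP libraries and 630 were above 0 in both. Among the 937 genes with a mean of 100 FPKM or more in BETL, 214 rose and 206 fell. By contrast, 751 rose and 186 fell among the 8204 genes between 5 and 20 FPKM. The median change of all genes tested was 0.79, and changes of lists below are read beside it. It was 0.58 with median-of-ratios scaling and 0.04 with quantile normalization, and the calls then split into 1517 higher and 1176 lower, and 1034 higher and 1252 lower. Without 20 DAP replicate 1 or replicate 2 the count was 900 or 975, without 8 DAP replicate 1 it was 1484, and with library weights 4398.

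**Figure D1:**
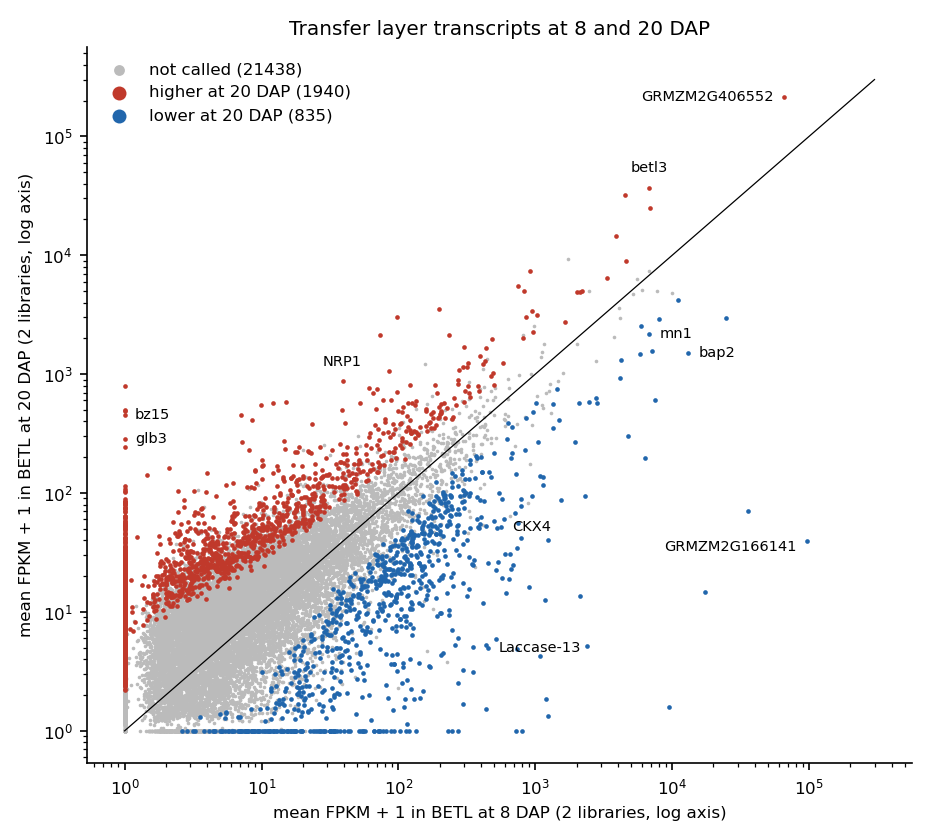
Mean level of each of the 24213 genes tested in BETL at 8 DAP (x axis) and at 20 DAP (y axis), as FPKM + 1 on log axes, with genes called higher (1940), called lower (835) and not called (21438) in separate colours. Several of the most abundant genes of 8 DAP, such as GRMZM2G166141, lie far below the diagonal, while GRMZM2G406552 and betl3 lie above it near the top.

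The 10 most abundant transcripts of the layer were mostly different genes at the 2 ages. Several of the later set were already abundant at 8 DAP, with levels given below. Of the 10 genes with the highest mean at 8 DAP, 8 fell, and of the 10 highest at 20 DAP, 8 rose. Picking genes by their level at 1 of the compared ages favours this outcome. Among the 937 genes with a mean of 100 FPKM or more in BETL, 22.8% rose and 22.0% fell. The 2 sets share 1 gene. That gene, GRMZM2G406552 (chromosome 4, 195759880 to 195760460), has no descriptive name in the tables used. Its levels were 61359 and 70372 at 8 DAP, 133907 and 130460.0 at 14 DAP, then 199091 and 226439 at 20 DAP, so that it went from 7.37% to 21.6% of all FPKM of the layer. The change was 1.69 ± 0.22 (3.23-fold, limma adjusted p = 0.0015), and the call was lost in fits on the compared groups alone (adjusted p = 0.51) or on the 6 BETL libraries alone (0.42). Each 20 DAP library lay above each 8 DAP library, as in 45.1% of all tested genes.

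GRMZM5G897740 (chromosome 5, 215320399 to 215321009), another unnamed gene, stood at 4671 and 4364 at 8 DAP, 20745 and 14967 at 14 DAP, then 33870.4 and 30675 at 20 DAP. It rose by 2.84 ± 0.19, 7.14-fold (limma adjusted p = 2.7e-05). GRMZM2G027392 (chromosome 9, 1427343 to 1428678) stood at 979 and 839, then 4278 and 3273, then 7931 and 6669, and rose 8.03-fold (adjusted p = 7.4e-05). In these 2 genes the 14 DAP libraries lay between the other ages. GRMZM5G843972 did not follow that course, with 3568 and 4209 at 8 DAP, 3328 and 4319.9 at 14 DAP, then 14872 and 14292 at 20 DAP. Its adjusted p was 0.022, and between 0.062 and 0.15 without each of the 4 libraries in turn. GRMZM2G046532 was highest at 14 DAP, with 4443 and 4689, then 13472 and 9917, then 9522 and 8289 (0.96 ± 0.23, adjusted p = 0.025, and 0.078 to 0.18 without each of the 4 libraries in turn).

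Several transcripts that dominated at 8 DAP were nearly gone at 20 DAP. GRMZM2G166141 (chromosome 10, 101520598 to 101521474) stood at 93992 and 97409.5 at 8 DAP, 421 and 317 at 14 DAP, then 40.9 and 35.9 at 20 DAP, a change of −11.25 ± 0.22 (limma adjusted p = 8.3e-09). It made up 10.7% of all FPKM at 8 DAP and 0.00389% at 20 DAP. In MATZ it stood at 79394 and 108239 at 8 DAP and at 747 and 561 at 20 DAP. GRMZM2G150091 went from 35833 and 36043 to 87.8 and 52.0, and GRMZM2G039538 from 17563 and 17004 to 16.5 and 11.1. GRMZM2G136364 went from 9703 and 9363 to 1.2 and 0, the largest fall of the named genes (−12.65 ± 0.36, adjusted p = 7.1e-08). All 4 also fell in MATZ (adjusted p = 2.3e-07 to 6.9e-07), and the fall was larger in BETL for each (difference between tissues −1.92 to −4.09, adjusted p = 0.00079 to 0.029).

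GRMZM2G107302 was a transcript of the layer itself, at 25086 and 24289 at 8 DAP against 327 and 605 in MATZ. It fell to 3127 and 2801 at 20 DAP (−3.06 ± 0.36, 8.33-fold lower, limma adjusted p = 0.00081). GRMZM2G158400 (10284 and 11579 to 4509.7 and 3902, adjusted p = 0.015) and GRMZM2G072219 (6514 and 9488 to 3143 and 2703, adjusted p = 0.018) fell less. Both calls were lost under several alternatives. Without each of the 4 libraries in turn the adjusted p of GRMZM2G158400 ran from 0.063 to 0.13, and it was 0.066 in the fit on the compared groups alone and 0.093 with no mean trend. That of GRMZM2G072219 was 0.094, 0.10 and 0.15 without 8 DAP replicate 2, 20 DAP replicate 1 and 20 DAP replicate 2, 0.084 in the fit on the compared groups alone, 0.071 on the 6 BETL libraries alone, 0.092 with no mean trend and 0.18 with quantile normalization. A pair of other abundant transcripts was not called. AC196417.3_FG008 stood at 6348 and 7163 at 8 DAP, then 7347 and 7399 at 20 DAP. The BURP domain gene BURP7, of a family of secreted plant proteins, stood at 8914 and 11080.5 and then 4702 and 4913 (−1.05 ± 0.34, adjusted p = 0.075, but 0.016 with median-of-ratios scaling, 0.032 with library weights and 0.036 at a mean FPKM of at least 20).

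The named genes of the transfer layer did not move as a block. Of 12 tested, 3 rose (betl3, betl-9 and betl4), 2 fell (bap2 and EBE-2) and 7 were not called, with a median change of 0.26, which was −0.17 under median-of-ratios scaling. Their summed FPKM was 35807 and 44719 at 8 DAP, 44784 and 54167 at 14 DAP, then 89332 and 81061 at 20 DAP, so the sum of the list was higher in both late libraries than in any earlier one. Without each of the 4 libraries in turn, 1 or 2 rose and 1 fell. Copies of betl, meg, esr and zein genes are nearly identical, which leaves the level of any one of them uncertain. In MATZ the same list summed to 1125 and 1771 at 8 DAP, then 11149 and 9899 at 20 DAP, so these markers of the labelled tissue were more abundant in BETL at either age, and EBE-1 was the 1 member at or near 0 throughout.

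The betl genes encode small secreted proteins rich in cysteine. The gene betl3 (GRMZM2G175976; chromosome 3, 132255638 to 132256157) stood at 6165 and 7398 at 8 DAP, 15632 and 12532 at 14 DAP, then 38804 and 34729 at 20 DAP. It rose by 2.44 ± 0.35, 5.42-fold (limma adjusted p = 0.0023, but 0.056 in the fit on the compared groups alone). The gene betl-9 (GRMZM2G087413; chromosome 3, 138623892 to 138624577), stood at 5909 and 7775, then 10961 and 17442, then 25924 and 24302, and rose 3.67-fold (1.89 ± 0.29, adjusted p = 0.0036, but 0.056 without 20 DAP replicate 1, 0.077 in the fit on the compared groups alone and 0.068 on the 6 BETL libraries alone). Both genes were higher in each 20 DAP library than in each 8 DAP library, as were 45.1% of all tested genes.

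The gene betl4 (GRMZM2G073290; chromosome 4, 208847826 to 208848375) stood at 2777 and 3844 at 8 DAP, then 6866 and 6091 at 20 DAP, with 2135 and 3191 between them at 14 DAP. Its 1.96-fold rise had a limma adjusted p of 0.04, which was 0.22 and 0.051 without 8 DAP replicate 1 and 2 and 0.23 and 0.17 without 20 DAP replicate 1 and 2. It was 0.25 with median-of-ratios scaling, 0.13 in the fits on the compared groups alone and on the 6 BETL libraries alone, and 0.19 with no mean trend. The gene betl1c (GRMZM2G082785) was at 1669 and 1768, then 6463 and 7431, then 9651 and 9062, a 5.44-fold difference that was not called (2.44 ± 0.83, adjusted p = 0.088), and was called in the fits on the compared groups alone (0.035) and on the BETL libraries alone (0.011). The pooled SE of this gene includes MATZ at 8 DAP, where its replicates were 12.2 and 158. The level of betl10 (GRMZM2G091445) was 5496 and 6439 at 8 DAP, 5539.6 and 6709.7 at 14 DAP, then 5559 and 4718 at 20 DAP, and its change was not called (−0.22 ± 0.18, adjusted p = 0.47, and 0.16 on the log2 scale with quantile normalization).

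Of the 4 bap genes, which encode antifungal proteins of the basal layer, 1 was called, and it fell. The most abundant, bap2 (GRMZM2G152655; chromosome 4, 34264143 to 34265135), stood at 11351 and 14698 at 8 DAP, 3060.4 and 5474 at 14 DAP, then 1645 and 1389 at 20 DAP. It fell by 3.09 ± 0.29 on the log2 scale, 8.59-fold lower (limma adjusted p = 0.00023). Its relatives were not called: bap-1a was at 1030.2 and 1260.5 and then 567 and 473 (adjusted p = 0.16), bap-3b at 775 and 977 and then 77.1 and 84.3 (adjusted p = 0.11), and bap-3a at 393 and 334 and then 19.9 and 26.2 (adjusted p = 0.15). The falls of bap-3b and bap-3a were called in the fit on the compared groups alone (adjusted p = 0.035 for both) and with a pseudocount of 5 (0.021 and 0.027), and that of bap-3b also on the 6 BETL libraries alone (0.0085) and with library weights (0.048). In all 4 genes the 20 DAP libraries lay below the 8 DAP libraries, as in 12% of all tested genes. EBE-2, a gene of the early basal endosperm, stood at 119 and 110.3 and then 3.39 and 0 (limma adjusted p = 0.021, and 0.062 to 0.17 without each of the 4 libraries in turn). EBE-1 was at 0 in both 8 DAP libraries and at 0 and 1.89 at 20 DAP. The response regulator gene tcrr-1 stood at 123 and 116 at 8 DAP, then 216 and 184 at 20 DAP (0.73 ± 0.56, adjusted p = 0.43).

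**Figure D2:**
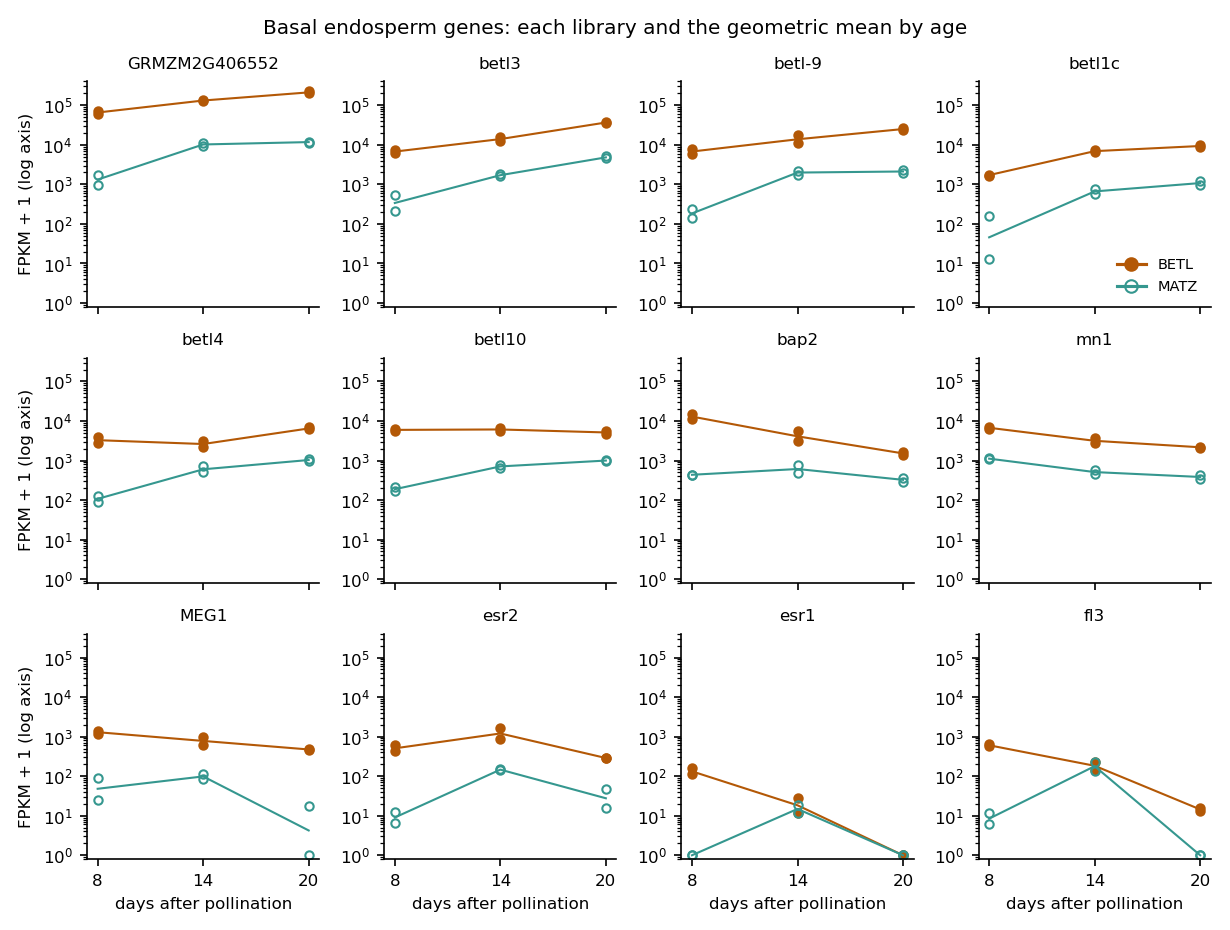
Level of 12 genes of the basal endosperm at 8, 14 and 20 DAP, 1 gene per panel, with each BETL library as a filled point and each MATZ library as an open point (FPKM + 1, log axis) and lines through the geometric mean of FPKM + 1. GRMZM2G406552, betl3, betl-9 and betl1c climb in BETL, bap2, mn1, esr1 and fl3 go down, and betl10 shows no called change.

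Genes for small secreted peptides of the endosperm were mostly not called. The MEG genes encode small peptides of the transfer cells expressed from the maternal allele, and by limma 0 of 3 were called, also 0 at an unadjusted p under 0.05. MEG1 (GRMZM2G354335) stood at 1187 and 1409 and then 494 and 452 (adjusted p = 0.41, but 0.036 in the fit on the compared groups alone and 0.045 on the 6 BETL libraries alone), meg2 (GRMZM2G088896) at 906 and 1626 and then 736 and 699 (adjusted p = 0.45), and the meg2 copy GRMZM2G094054 at 699 and 1114 and then 182 and 169 (adjusted p = 0.25, but 0.037 and 0.033 in those fits). The 20 DAP values were below the 8 DAP values in all 3, as in 12% of all tested genes. The esr genes, secreted proteins of the endosperm around the embryo, had 1 of 4 called. This was esr1 (GRMZM2G046086), at 110.3 and 157 at 8 DAP, 10.9 and 27.3 at 14 DAP and listed at 0 in both 20 DAP libraries (adjusted p = 0.00029). Its relative esr2 was highest at 14 DAP, with 422 and 603, then 869 and 1659, then 281 and 293 (adjusted p = 0.34 for 20 against 8 DAP).

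The main gene for sucrose cleavage in the wall fell. Expression of mn1, the gene of the cell wall invertase (GRMZM2G119689; chromosome 2, 56806976 to 56810257) stood at 7225 and 6251 at 8 DAP, 3614 and 2744 at 14 DAP, then 2259.6 and 2064 at 20 DAP. It fell by 1.64 ± 0.18, 3.12-fold lower (limma adjusted p = 0.00057), and was the 1 called gene of the 8 tested for sucrose cleavage. The change in MATZ was −1.54 (adjusted p = 0.0013), and the difference between the tissues was −0.10 ± 0.25 (adjusted p = 0.89). The sucrose transporter gene sut1 stood at 66.9 and 63.0, then 219.7 and 246, then 156 and 166 (1.29 ± 0.46, adjusted p = 0.1, but 0.035 in the fit on the compared groups alone, 0.012 on the 6 BETL libraries alone and 0.048 with library weights), and by limma 0 of the 4 sugar transporter genes were called, with 1 at an unadjusted p under 0.05. The floury gene fl3 (GRMZM2G006585), which encodes a zinc-binding regulator of the endosperm, fell 44.9-fold from 644 and 565 to 12.3 and 14.7, with 145 and 228 at 14 DAP (−5.39 ± 0.43, adjusted p = 8.3e-05).

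Across lists of genes with shared roles, the zein and embryo lists had the highest medians and the histone list the lowest among those with at least 8 tested members. The background beside every count that follows is 8.01% of all tested genes higher and 3.45% lower.

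**Figure D3:**
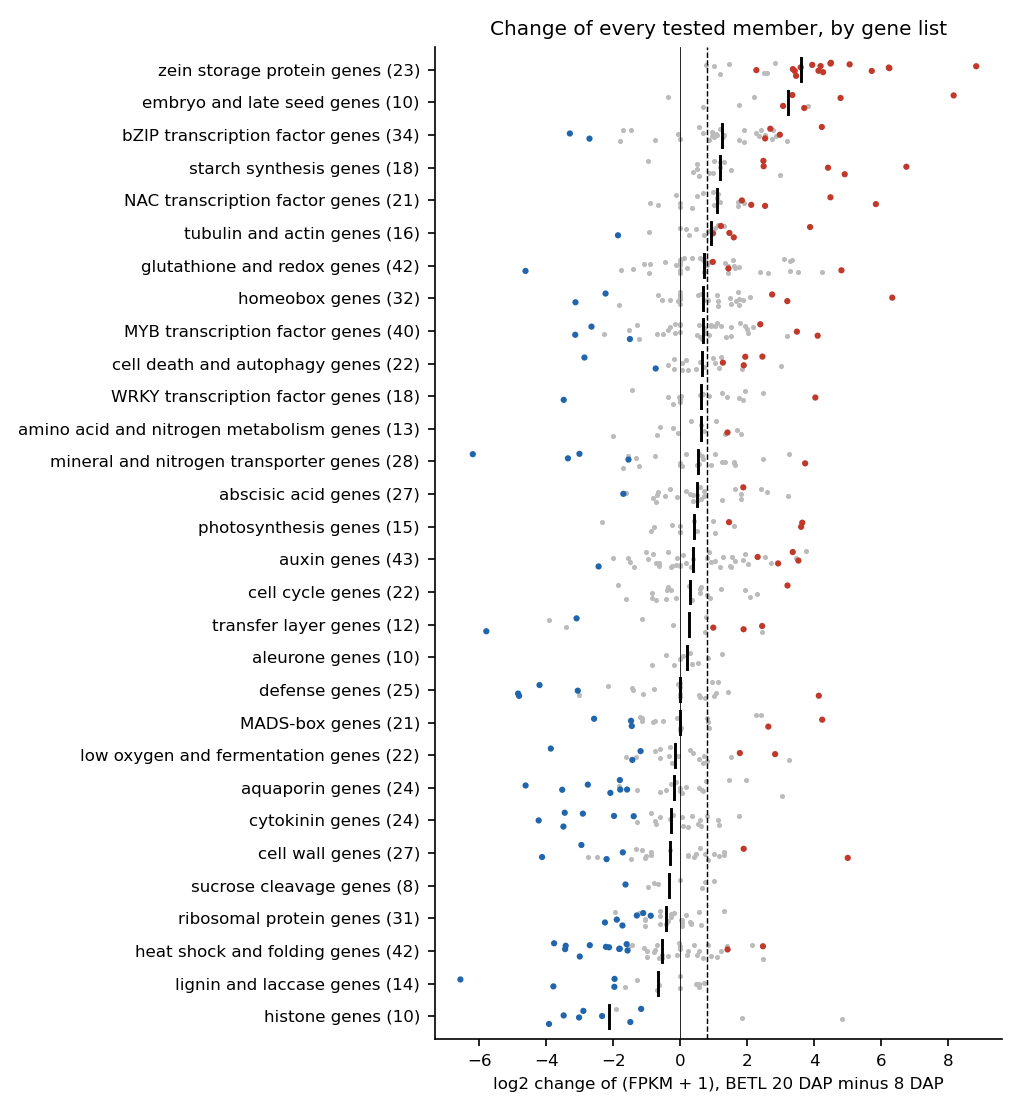
Change in BETL from 8 to 20 DAP (log2, 20 DAP minus 8 DAP) of each tested member of the lists with at least 8 tested members, with a bar at each list's median and a dashed line at the median of all tested genes, 0.79. The zein list has the highest median at 3.59 and the histone list the lowest at −2.12.

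Zein genes, whose proteins are stored in the starchy endosperm, were low in the layer at 8 DAP and higher at 20 DAP. Of 23 tested, 16 rose and 0 fell (0 also at an unadjusted p under 0.05), with a median change of 3.59, and 16 of the 23 were listed at 0 in both 8 DAP libraries. The median therefore depends on the pseudocount, with 6.27 at 0.1 and 2.11 at 5, and the count was 9 without 20 DAP replicate 1 and 9 without replicate 2. The list summed to 71.7 and 62.7 FPKM at 8 DAP, 3919.7 and 3821 at 14 DAP, then 1369.7 and 1346 at 20 DAP. The sums were thus highest at 14 DAP. In MATZ, the maternal side, they ran from 42.5 and 73.8 through 10267 and 9911 to 780.5 and 987, and the part of neighbouring starchy endosperm in these values was not tested.

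Among single zein genes, the beta zein bz15 (GRMZM2G086294) was listed at 0 in both 8 DAP libraries, and stood at 1789.8 and 1356 at 14 DAP, then 445 and 463 at 20 DAP (limma adjusted p = 1.1e-05). The gamma zeins were detected at 8 DAP: gz27 (GRMZM2G138727) rose 4.93-fold from 25.7 and 31.7 to 139 and 144 (2.27 ± 0.33, adjusted p = 0.0027). Likewise gz16 (GRMZM2G060429) rose 9.47-fold from 40.5 and 10.9 to 263 and 224 (3.45 ± 0.48, adjusted p = 0.0021, but 0.087 in the fit on the compared groups alone). The alpha zeins z1A1_3, z1A2_1, z1C1_7 and z1C1_8 were listed at 0 in both 8 DAP libraries, and z1A1_3 stood at 73.8 and 75.2 at 20 DAP (adjusted p = 1.1e-05).

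Starch synthesis genes rose in part. Of 18 tested, 5 rose and 0 fell (0 also at an unadjusted p under 0.05), with a median of 1.17, and 5 were listed at 0 in both 8 DAP libraries. Their sum was 73.6 and 78.9 FPKM at 8 DAP, 316 and 307 at 14 DAP, then 371 and 339 at 20 DAP. The waxy gene wx1 (GRMZM2G024993), for the starch synthase that makes amylose, was listed at 0 in both 8 DAP libraries and stood at 76.0 and 50.5 at 14 DAP, then 103 and 109.8 at 20 DAP (limma adjusted p = 1.8e-05). The shrunken gene sh2, for the large subunit of ADP-glucose pyrophosphorylase, was listed at 0 and then at 24.5 and 16.6 (adjusted p = 0.0033). Also called were the starch synthase gene ss1 (listed at 0, then 26.4 and 31.8, adjusted p = 0.015) and bt1 for the carrier of ADP-glucose into the plastid (3.86 and 6.69, then 35.9 and 30.6, adjusted p = 0.045). The branching enzyme gene ae1 (GRMZM2G032628) was called too (10.6 and 4.83, then 53.9 and 37.8, adjusted p = 0.049). Another gene of the list with the name ae1, GRMZM2G039942, was not called (1.30 ± 0.91, limma adjusted p = 0.39). Below, ae1 means GRMZM2G032628. Without 20 DAP replicate 1, 20 DAP replicate 2, 8 DAP replicate 1 and 8 DAP replicate 2 the list had 2, 2, 2 and 3 calls, and with each of the 3 other scalings 3. The adjusted p of bt1 was 0.21, 0.18, 0.17 and 0.069 in that order, and that of ae1 0.25, 0.17, 0.077 and 0.17. The call of ss1 was lost without 3 of the 4 libraries, with 0.1 and 0.12 without 20 DAP replicate 1 and 2 and 0.064 without 8 DAP replicate 1.

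Markers of the embryo and of late seed development also moved, and are given here because a dissected basal piece could hold embryo. Of 10 tested, 5 rose and 0 fell (0 also at an unadjusted p under 0.05), with a median of 3.20, and 6 were listed at 0 in both 8 DAP libraries. Their sum was 135 and 94.0 FPKM at 8 DAP, 966 and 912 at 14 DAP, then 609 and 642 at 20 DAP, against 81.0 and 78.6 in MATZ at 8 DAP, then 286 and 337 at 20 DAP. The globulin gene glb3 (GRMZM2G410134) was listed at 0 in both 8 DAP libraries and stood at 242 and 151 at 14 DAP, then 272 and 297 at 20 DAP (limma adjusted p = 3.1e-06). The oleosin gene ole1, for a coat protein of oil bodies, went from 26.9 and 5.23 to 170.1 and 170.0 (adjusted p = 0.03, but 0.14, 0.17 and 0.18 without 8 DAP replicate 2, 20 DAP replicate 1 and 20 DAP replicate 2). The list had 1 call without either 20 DAP library, 2 without 8 DAP replicate 1 and 3 without 8 DAP replicate 2. The part of embryo tissue in these rises was not tested. By limma 0 of 10 aleurone genes were called, also 0 at an unadjusted p under 0.05.

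NAC transcription factor genes, of a large plant family, rose or were not called. Of 21 tested, 5 rose and 0 fell (0 also at an unadjusted p under 0.05), with a median of 1.09. NRP1 (GRMZM2G062650) stood at 37.7 and 38.4 at 8 DAP, 541 and 334 at 14 DAP, then 898 and 844 at 20 DAP, and rose 22.9-fold (4.48 ± 0.41, limma adjusted p = 0.00019). The gene nac4 (GRMZM2G154182) stood at 2.99 and 25, then 227 and 273, then 595 and 566 (5.83 ± 0.85, adjusted p = 0.0027, but 0.069 in the fit on the compared groups alone). The sum of the list was 253 and 175 FPKM at 8 DAP, then 1826 and 1727 at 20 DAP, mostly these 2 genes. The list had 2 calls without 8 DAP replicate 2, 20 DAP replicate 1 or 20 DAP replicate 2.

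Other regulators rose over the same days. The homeobox gene HB34 was listed at 0 in both 8 DAP libraries and stood at 79.8 and 78.5 at 20 DAP (limma adjusted p = 0.00013). ZCN11, of the family of flowering regulators related to FT, was listed at 0, then at 218 and 186 at 14 DAP, then 51.4 and 70.1 at 20 DAP (adjusted p = 0.0016), with no more than 10.4 FPKM in any MATZ library. The SHI-related gene SRS7 was listed at 0 and then at 26.9 and 30.9 (adjusted p = 0.016, and 0.051 to 0.12 without each of the 4 libraries in turn). Among 34 bZIP genes 4 rose and 2 fell: bZIP7 rose 5.88-fold from 21.7 and 13.1 to 102 and 103 (2.53 ± 0.48, adjusted p = 0.01, but 0.07 and 0.069 without 20 DAP replicate 1 and 2), and bZIP84 fell 6.65-fold from 319.8 and 339 to 50.3 and 48.8 (−2.71 ± 0.25, adjusted p = 0.00019). The bZIP rises numbered 3 and 6 without 8 DAP replicate 1 and 2 and 1 without either 20 DAP library, and the falls 1, 1, 3 and 1 in the same order.

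Cytoskeleton genes rose in part, 5 of 16 tubulin, actin and profilin genes against 1 that fell, with a median of 0.90. The alpha tubulin gene tua4 (GRMZM2G152466) stood at 438 and 413 at 8 DAP, 509.8 and 527 at 14 DAP, then 1322 and 1257 at 20 DAP (1.60 ± 0.16, 3.03-fold, limma adjusted p = 0.0003). The profilin gene PRO5, for an actin-binding protein, rose 2.77-fold from 210.2 and 195 to 576 and 544 (adjusted p = 0.0067, but 0.065 and 0.054 without 20 DAP replicate 1 and 2). The list had 3 rises without 8 DAP replicate 1, 1 without 20 DAP replicate 1 and 2 without 20 DAP replicate 2, against 5 without 8 DAP replicate 2.

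Several single genes of other roles rose strongly. A chitinase gene, GRMZM2G005633 (chromosome 10, 127370249 to 127371829), of a family that cuts fungal walls, rose 19.8-fold from 6.83 and 8.95 to 128 and 186 (4.13 ± 0.31, limma adjusted p = 5e-05). The gene listed as mde1 rose 18.7-fold, from 9.49 and 8.98 to 187 and 158 (4.08 ± 0.37, adjusted p = 0.00019). The amino acid permease gene aap1, for an uptake carrier, stood at 2.77 and 2.44 and then 47.7 and 45.5 (3.73 ± 0.62, adjusted p = 0.0054, but 0.051 without 20 DAP replicate 1). The glutathione transferase gene gst1, of the detoxifying enzymes, rose 2.72-fold from 155 and 187 to 508 and 422 (adjusted p = 0.0035, but 0.057 with no mean trend). The gene mtl2 was listed at 0 in both 8 DAP libraries and then at 279 and 139 and at 68.7 and 101 (adjusted p = 8.2e-05), and ae3 stood at 0 and 0.935 and then, at 20 DAP, at 152 and 129 (adjusted p = 0.0019). BURP6 was listed at 0 and 7.38 at 8 DAP and at 74.4 and 112 at 20 DAP (adjusted p = 0.037), and its adjusted p was 0.2, 0.17 and 0.22 without 8 DAP replicate 1, 20 DAP replicate 1 and 20 DAP replicate 2.

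The protein folding list had the largest number of falls among the 38 lists. Of 42 heat shock and folding genes tested, 11 fell, 2 rose and 29 were not called, with a median of −0.55. Their sum was 5560.3 and 5602 FPKM at 8 DAP, 2079 and 2214 at 14 DAP, then 1919 and 1839 at 20 DAP. PDIL1-1 (GRMZM2G091481; chromosome 4, 14854376 to 14859167), a protein disulfide isomerase that forms disulfide bonds in secreted proteins, stood at 2695 and 2835 at 8 DAP, 738 and 799 at 14 DAP, then 608 and 658 at 20 DAP (−2.13 ± 0.16, 4.37-fold lower, limma adjusted p = 5.2e-05). It was the most abundant member of the list at each age.

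Among the other members that fell, the calreticulin gene crt2, for a chaperone of the endoplasmic reticulum, went down 14.1-fold from 325 and 367 to 25.9 and 23.1 (−3.77 ± 0.32, limma adjusted p = 0.00012). The BiP genes, for the main chaperone of that compartment, fell as well, bip1 from 164 and 132 to 25.4 and 18.7 (6.71-fold lower, adjusted p = 0.0011) and bip2 from 102 and 91.6 to 11.0 and 5.95 (11.4-fold lower, adjusted p = 0.0019). Outside that compartment, the heat shock factor gene Hsf12 fell from 171 and 186 to 14.9 and 16.3 (−3.44 ± 0.30, adjusted p = 0.00015) and the small heat shock protein gene hsp18f from 281 and 356 to 47.7 and 31.4 (8.05-fold lower, adjusted p = 0.0005). Without either 20 DAP library 7 genes of the list fell, and without each of the 4 libraries in turn 0 rose.

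Histone genes had the largest share of falls among the 38 lists. Of 10 tested, 7 fell and 0 rose (1 at an unadjusted p under 0.05), with a median of −2.12 in BETL and −2.31 in MATZ. Their sum was 2019.8 and 1699 FPKM at 8 DAP, 606 and 587 at 14 DAP, then 417 and 465 at 20 DAP. The linker histone gene his1a (GRMZM2G401308) stood at 418 and 429, then 97.4 and 104, then 72.4 and 95.8 (−2.33 ± 0.21, limma adjusted p = 0.00019), and hon110 fell 8.36-fold from 508 and 359.7 to 48.6 and 55.2 (−3.02 ± 0.38, adjusted p = 0.0013). The adjusted p of hon101 (259.7 and 175, then 97.9 and 91.0) was 0.025, and 0.12, 0.11 and 0.13 without 8 DAP replicate 1, 20 DAP replicate 1 and 20 DAP replicate 2. The H2A gene his2a1 (313 and 281, then 98.0 and 113) had 0.029, and 0.071 to 0.18 without each of the 4 libraries in turn. The list had 4 falls without 8 DAP replicate 1, 3 without 20 DAP replicate 1 and 4 without 20 DAP replicate 2. Cell cycle genes had 1 of 22 called higher and 0 lower (2 lower at an unadjusted p under 0.05), with 1 rise without 8 DAP replicate 2 and 0 without each of the other 3 libraries. Of 31 ribosomal protein genes 6 fell and 0 rose (1 at an unadjusted p under 0.05), with a median of −0.41, and 2, 2 and 1 fell without 8 DAP replicate 1, 20 DAP replicate 1 and 20 DAP replicate 2. With median-of-ratios scaling 13 of the ribosomal protein genes fell, and 9 when scaled without the 10 most abundant genes of each group.

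Aquaporin genes, for water channels of membranes, fell in part in BETL, while the sum of the same list was higher at 20 DAP in MATZ. Of 24 tested, 7 fell and 0 rose (2 at an unadjusted p under 0.05), with a median of −0.19. The sum was 3374 and 3084 FPKM at 8 DAP, 1551 and 1225 at 14 DAP, then 1006 and 952 at 20 DAP in BETL, against 7197 and 6943 at 8 DAP, then 10798 and 10935 at 20 DAP in MATZ. Most of it was pip2b (GRMZM2G092125; chromosome 2, 168551300 to 168554811), at 2520.2 and 2442, then 1071 and 736, then 628 and 542, which fell 4.24-fold (−2.09 ± 0.17, limma adjusted p = 0.00011). PIP2-1 fell 3.02-fold from 145 and 149 to 55.2 and 42.4 (−1.59 ± 0.22, adjusted p = 0.002). PIP2-6 went from 21.5 and 25.6 to a listed 0 in both 20 DAP libraries (adjusted p = 0.0068, and 0.051 without 20 DAP replicate 1). SIP1-2 (136 and 92.2, then 27.8 and 35.6) had an adjusted p of 0.026, and of 0.13, 0.17 and 0.11 without 8 DAP replicate 1, 20 DAP replicate 1 and 20 DAP replicate 2. The list had 4, 3 and 4 falls without those same libraries, and 1 rise without 20 DAP replicate 1.

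Cytokinin genes fell in part, among them genes for enzymes that break the hormone down. Of 24 tested, 6 fell and 0 rose (1 at an unadjusted p under 0.05), with a median of −0.26, and the sum went from 909.8 and 853 FPKM at 8 DAP through 322 and 349 to 188 and 187 at 20 DAP. The cytokinin oxidase gene CKX4 (GRMZM5G817173; chromosome 3, 191840046 to 191843911) stood at 593 and 535 at 8 DAP, 122 and 155 at 14 DAP, then 55.2 and 46.7 at 20 DAP, an 11.1-fold fall (−3.45 ± 0.19, limma adjusted p = 8e-06). Further oxidase genes fell too, cko2 from 77.0 and 93.4 to 11.0 and 9.98 (8.15-fold lower, adjusted p = 0.0075, but 0.057 and 0.062 without 20 DAP replicate 1 and 2) and CKX5 from 36.6 and 16.9 to 0.928 and 0 (adjusted p = 0.0067, but 0.064 without 20 DAP replicate 2). The response regulator gene crr2 stood at 51.3 and 29.5 and then 5.23 and 15.5 (adjusted p = 0.028, and 0.14 and 0.16 without 8 DAP replicate 1 and 20 DAP replicate 1). The list had 3, 2 and 2 falls without 8 DAP replicate 1, 20 DAP replicate 1 and 20 DAP replicate 2, and 2 rises without 8 DAP replicate 2.

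Among 43 auxin genes 4 rose and 1 fell, with a median of 0.38 that was −0.32 with quantile normalization. The gene that fell, GH3 (GRMZM2G378106), of the enzymes that join auxin to amino acids, stood at 545 and 533 at 8 DAP, 404 and 315 at 14 DAP, then 96.3 and 101 at 20 DAP (−2.44 ± 0.22, 5.46-fold lower, limma adjusted p = 0.00016). The rises were 2 without 8 DAP replicate 1, 1 without 20 DAP replicate 1 and 0 without 20 DAP replicate 2, while GH3 fell in each of these fits. By limma 0 of 4 gibberellin genes and 0 of 5 ethylene genes were called, with none of either at an unadjusted p under 0.05. Of 27 abscisic acid genes 1 rose and 1 fell, with 0 of either without a 20 DAP library, 1 fall without 8 DAP replicate 1 and 1 rise without 8 DAP replicate 2.

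Lignin and cell wall genes fell in part. Of 14 lignin and laccase genes 4 fell and 0 rose (0 also at an unadjusted p under 0.05), with a median of −0.67, and their sum went from 797 and 609.8 FPKM at 8 DAP to 159 and 196 at 20 DAP. Laccases polymerise lignin, and Laccase-13 (GRMZM5G814718; chromosome 1, 46411401 to 46414414) stood at 507 and 394 at 8 DAP, 5.6 and 13.6 at 14 DAP, then 2.40 and 5.64 at 20 DAP, a 112-fold fall (−6.56 ± 0.45, limma adjusted p = 3.2e-05). LAC1 fell 16.2-fold from 114 and 76.0 to 5.13 and 6.58 (−3.79 ± 0.43, adjusted p = 0.00062). The list had 2 falls without 8 DAP replicate 2, 20 DAP replicate 1 or 20 DAP replicate 2.

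Of 27 cell wall genes 4 fell and 2 rose, with a median of −0.31 that was 0.24 at a pseudocount of 0.1. The beta expansin gene expB3, for a wall-loosening protein, fell 23.4-fold from 107 and 53.5 to 3.90 and 2.96 (−4.12 ± 0.50, limma adjusted p = 0.00097). The HRGP gene, for a structural wall protein, fell 3.22-fold from 217 and 238 to 53.9 and 87.3 (adjusted p = 0.0016, but 0.059 in the fit on the compared groups alone). The list had 1 rise without 8 DAP replicate 1 or 8 DAP replicate 2 and 0 without either 20 DAP library.

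Cell death and autophagy genes had calls in both directions. Of 22 tested, 4 rose (18.2% against 8.01% of all genes), 2 fell (9.09% against 3.45%) and 16 were not called. With median-of-ratios scaling or quantile normalization 2 rose. The cysteine protease gene ccp1 (GRMZM2G098298; chromosome 5, 158865959 to 158869458) stood at 2178 and 1737 at 8 DAP, 348 and 411 at 14 DAP, then 242 and 295 at 20 DAP (−2.86 ± 0.17, 7.29-fold lower, limma adjusted p = 1.4e-05). The autophagy genes Atg8b and Atg8d, for proteins of the autophagosome membrane, rose 3.73-fold from 46.9 and 66.3 to 233 and 189.8 (adjusted p = 0.0074, but 0.051 and 0.078 without 8 DAP replicate 1 and 20 DAP replicate 1) and 2.42-fold from 102 and 79.9 to 237 and 204 (adjusted p = 0.0085, but 0.066 without 20 DAP replicate 1). The rises numbered 1, 2, 0 and 3 without 8 DAP replicate 1, 8 DAP replicate 2, 20 DAP replicate 1 and 20 DAP replicate 2, and 1 gene fell without 8 DAP replicate 1, 20 DAP replicate 1 or 20 DAP replicate 2.

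Transport and defense genes fell in part. Of 28 mineral and nitrogen transporter genes 4 fell and 1 rose, with a median of 0.53 that was −0.34 with quantile normalization. HAK17, of the family of potassium carriers, stood at 91.9 and 125 at 8 DAP, then 1.20 and 0 at 20 DAP (−6.19 ± 0.63, limma adjusted p = 0.00036). ZIP4, of the zinc and iron carriers, fell 8.44-fold from 58.5 and 69.8 to 10.6 and 4.63 (adjusted p = 0.0046, but 0.051 without 20 DAP replicate 2). The list had 2 falls without 20 DAP replicate 2 and 0 rises without 20 DAP replicate 1. Of 25 defense genes 4 fell and 1, the chitinase gene GRMZM2G005633 above, rose, and 2 fell without 20 DAP replicate 2. BX3 and BX5, for enzymes of benzoxazinoid synthesis, stood at 22.1 and 34.4 and at 33.8 and 21.6 at 8 DAP, and were listed at 0 in both 20 DAP libraries (adjusted p = 4.9e-05 and 0.00048). In MATZ at 8 DAP BX3 stood at 382 and 427 and BX5 at 194 and 189.

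MADS-box genes, chosen as a marker list for maternal tissue in the piece, were lower in BETL at 20 DAP in sum. Of 21 tested, 3 fell and 2 rose, with a median of −0.02. The rises were of GRMZM2G139073 (4.23) and GRMZM5G805387 (2.63), so the list did not move as a block. Whether each member marks maternal tissue was not tested. Their sum was 640.3 and 551 FPKM at 8 DAP, 489 and 448 at 14 DAP, then 325 and 326 at 20 DAP in BETL, against 1431 and 1550.1 at 8 DAP, then 3138 and 3174 at 20 DAP in MATZ. MADS35 fell 6.22-fold from 123 and 167 to 23.8 and 22.9 (−2.57 ± 0.29, limma adjusted p = 0.00066). The gene zag2, of ovule development, stood at 173 and 125 and then 47.1 and 58.4 (adjusted p = 0.015, but 0.087, 0.12 and 0.064 without 8 DAP replicate 1, 20 DAP replicate 1 and 20 DAP replicate 2). The list had 1 fall without those same libraries, 1 rise without either 8 DAP library and 0 without either 20 DAP library. The maternal chitinase gene chn1 (GRMZM2G453805), at 1298 and 1403 in MATZ at 8 DAP, was at 12.4 and 2.90 in BETL at that age and at 1.05 and 2.67 at 20 DAP. The part of maternal tissue in the falls of genes also found in MATZ was not tested.

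Other named genes with large falls were of mixed roles. The gene listed as hyp1 fell 61.2-fold from 288 and 229 to 5.07 and 3.38 (−5.64 ± 0.40, limma adjusted p = 4e-05), and AMA1, for the large subunit of RNA polymerase II, from 30 and 33.6 to 0.577 and 0.617 (adjusted p = 0.00054). The gene listed as plr354a stood at 27.6 and 91.7 and then 0.773 and 1.26 (adjusted p = 0.0022, but 0.052 in the fit on the compared groups alone). Cel17 (31.5 and 31.8, adjusted p = 0.00083), hir3 (37.4 and 29.4, adjusted p = 0.0092) and the peroxidase gene PER42 (37.6 and 14.6, adjusted p = 0.025) were listed at 0 in both 20 DAP libraries. Calls of hir3 and PER42 were lost without 8 DAP replicate 1, 20 DAP replicate 1 or 20 DAP replicate 2, with adjusted p of 0.055, 0.076 and 0.074 for hir3 and of 0.13, 0.14 and 0.14 for PER42.

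The remaining lists held few calls in number. Their shares lay above the background in some, such as photosynthesis (20% higher). In others they lay below it, such as glutathione and redox (7.14% higher). Photosynthesis genes had 3 of 15 higher and 0 lower (1 lower at an unadjusted p under 0.05), glutathione and redox genes 3 of 42 higher and 1 lower, and low oxygen and fermentation genes 2 of 22 higher and 3 lower, with 0 higher under median-of-ratios scaling or quantile normalization. MYB genes had 3 of 40 higher and 3 lower, homeobox genes 3 of 32 higher and 2 lower, and WRKY genes 1 of 18 in each direction. Amino acid and nitrogen metabolism genes had 1 of 13 higher, flavonoid genes 1 of 6 lower and lipid transfer genes 1 of 3 lower. By limma 0 of 6 proton pump genes were called, with 1 at an unadjusted p under 0.05. Without each of the 4 libraries in turn, 1 or 2 photosynthesis genes, 2 to 4 redox genes and 0 low oxygen genes were higher, and 0 to 5 MYB, 1 or 2 homeobox and 0 or 1 WRKY genes. The falls then were 0 to 2 for redox, 1 to 3 for low oxygen, 0 to 3 for MYB, 1 or 2 for homeobox, 0 to 2 for lipid transfer and 0 for flavonoid and WRKY genes, and amino acid and nitrogen genes had 0 to 2 rises.

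**Figure D4:**
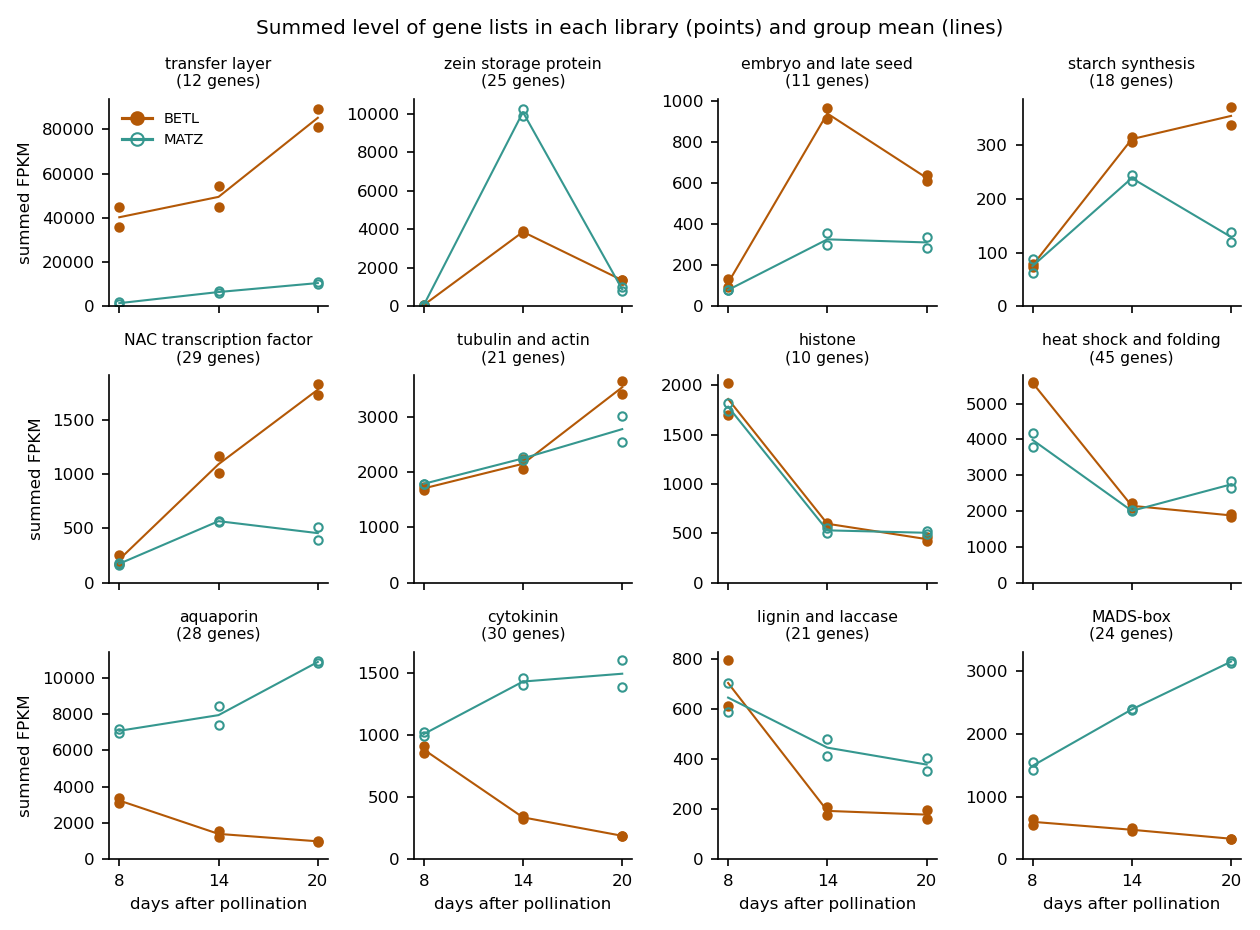
Summed FPKM of 12 gene lists in each library at 8, 14 and 20 DAP, BETL filled and MATZ open, with lines through the group means. In BETL the transfer layer, NAC and tubulin and actin sums are highest at 20 DAP, the zein and embryo sums peak at 14 DAP, and the histone, folding, aquaporin, cytokinin and lignin sums are highest at 8 DAP.

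The levels at 14 DAP show how far each change had gone. Of the 1940 genes that rose, the 14 DAP mean lay between the other ages in 1152 (59.4%) and above both in 781 (40.3%). Of the 835 that fell, it lay between in 680 (81.4%), below both in 115 (13.8%) and above both in 40. The median share of the change reached by 14 DAP was 0.92 for genes that rose and 0.71 for genes that fell. These values describe genes chosen by their change from 8 to 20 DAP, and no test of the single steps was made.

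Whether the layer changed differently from the facing maternal tissue was tested as the change in BETL minus the change in MATZ. By limma 565 genes were called (2.33%), 250 with the higher change in BETL (1.03%) and 315 with the lower (1.3%), and the median difference over all genes was 0.40. Without MATZ 8 DAP replicate 1 or 2 the count was 1044 or 987, without MATZ 20 DAP replicate 1 or 2 it was 347 or 227, without BETL 8 DAP replicate 1 it was 241, and without BETL 20 DAP replicate 1 or 2 it was 347 or 354. Calls of the change within MATZ covered 7.26% of tested genes, 4.39% higher and 2.88% lower.

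Several genes abundant in the layer rose in MATZ from low levels. The level of tcrr-1 in MATZ was listed at 0 in both 8 DAP libraries and at 83.1 and 24.1 at 20 DAP, against 123 and 116 and then 216 and 184 in BETL (difference −4.79 ± 0.80, limma adjusted p = 0.017). BURP7 went from 63.6 and 25.9 to 277 and 263 in MATZ while it stood at 8914 and 11080.5 and then 4702 and 4913 in BETL (difference −3.75 ± 0.48, adjusted p = 0.0053). Among the 12 transfer layer genes 4 had a called difference, all lower in BETL: tcrr-1, bap2 (−2.67), betl10 (−2.62) and betl4 (−2.28). Levels of these genes in MATZ stayed well below those in BETL at both ages.

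Other genes fell in BETL with a smaller fall, no called change or a rise in MATZ. CKX4 fell 11.1-fold in BETL and went from 463 and 480.2 to 769 and 876 in MATZ (difference −4.24 ± 0.27, limma adjusted p = 0.00024). The level of pip2b went from 5913 and 5703 to 8053 and 8064 in MATZ (difference −2.56 ± 0.25, adjusted p = 0.0016), and that of ccp1 from 2776 and 2379 to 2609 and 2726 (difference −2.91 ± 0.25, adjusted p = 0.00097). GH3 went from 357 and 257 to 445 and 547 in MATZ (difference −3.14 ± 0.31, adjusted p = 0.0017). Laccase-13 fell in both tissues, in MATZ from 354 and 247 to 64.3 and 79.3 (difference −4.53 ± 0.64, adjusted p = 0.0083), and hyp1 went from 189 and 144 to 78.8 and 94.3 in MATZ (difference −4.72, adjusted p = 0.0045). In these 6 genes the 20 DAP level was lower in BETL than in MATZ in every library. The fall of esr1 to a listed 0 in BETL was set against a listed 0 at both ages in MATZ (adjusted p = 0.008).

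In the other direction, mde1 rose in BETL and stood at 40.9 and 60.5 and then 34 and 71.6 in MATZ (difference 4.09 ± 0.53, limma adjusted p = 0.0057). The starch gene wx1, listed at 0 in BETL at 8 DAP, was at 3.58 and 5.40 and then 48.5 and 33.5 in MATZ (adjusted p = 0.014), and bz15, also listed at 0 there, was at 7.10 and 27.9 and then 214 and 411 (adjusted p = 0.014). The annexin gene Ann5, for a calcium-dependent membrane protein, was listed at 0 and then at 12.9 and 10.4 in BETL, and at 8.02 and 8.4 and then 4.87 and 4.76 in MATZ (adjusted p = 0.026). The called differences of chn1 (8.03 ± 1.04, adjusted p = 0.0058) and of NAR2.2, a partner of nitrate transporters (adjusted p = 0.019), came from falls in MATZ, since NAR2.2 was listed at 0 in every BETL library.

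**Figure D5:**
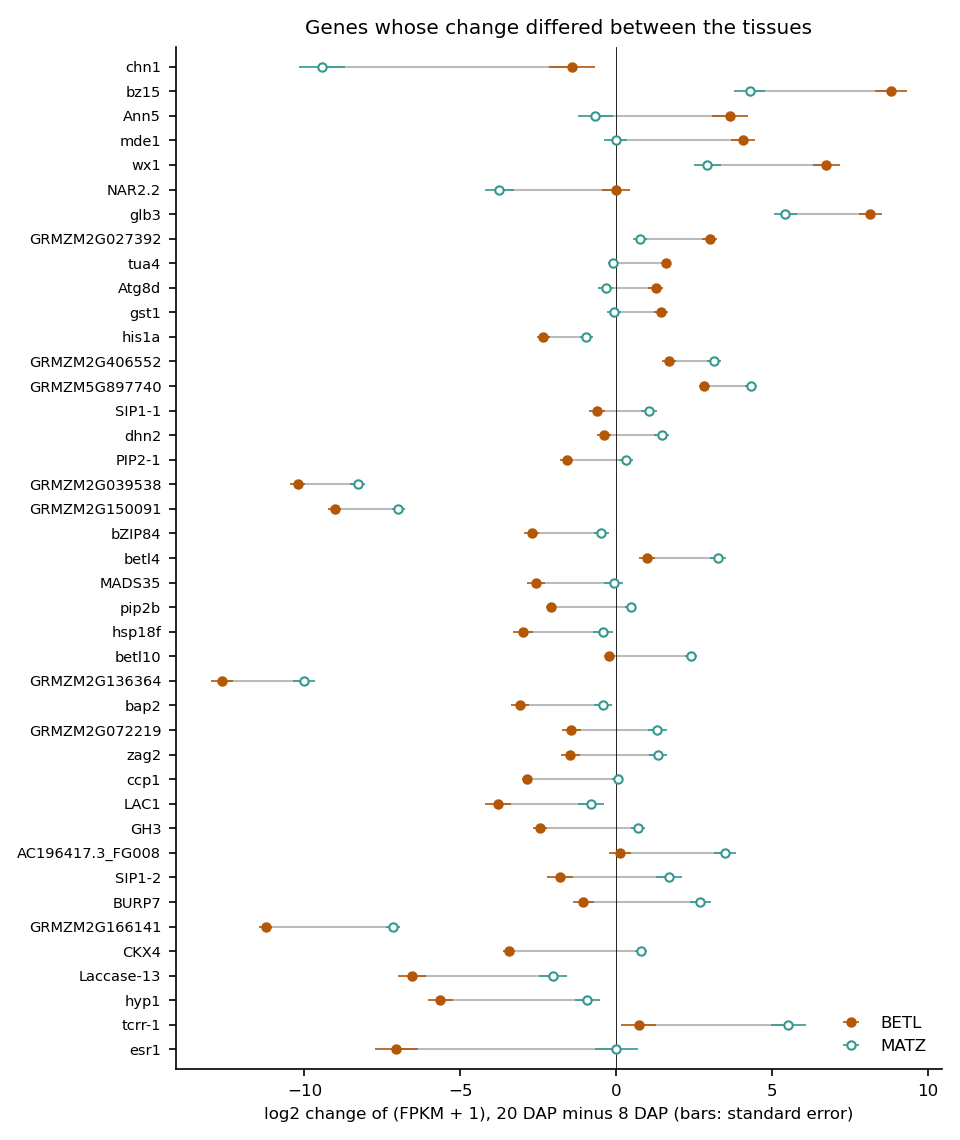
Change from 8 to 20 DAP in BETL and in MATZ, log2 ± SE, for the 41 genes named here whose change differed between the tissues by limma. CKX4, pip2b, ccp1 and GH3 have a change below 0 in BETL and above 0 in MATZ, where that of ccp1 is near 0 (0.05 ± 0.17). In mde1 and tua4 the change is higher in BETL than in MATZ.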

How the data were processed

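RNA of dissected BETL and MATZ pieces was sequenced, 2 libraries for each tissue and age. Per the file headers, the deposited table holds FPKM values in 1 column per library. Per the submitters' processing notes, the authors used TopHat2, Bowtie2 and Cufflinks, with versions, settings and genome build not given in the sources used here. Positions of genes were copied from that table, and 0 of its library columns could not be mapped to a sample. Gene names, and nothing else, were taken from RefSeq's table for Zm-B73-REFERENCE-NAM-5.0, in which 18771 of 39423 IDs matched and 520 matched more than 1 record. Roles of named genes are textbook knowledge and were not checked by sequence.

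FPKM values were used without rescaling. The 24213 genes that reached 1 FPKM in 2 or more of 12 libraries were tested, and 10484 were at 0 in all. Log2(FPKM + 1) was fitted in R 4.3.3 by limma 3.58.1 (lmFit and contrasts.fit, then eBayes with a mean trend, two-sided) on 12 libraries with 6 group means, with 6 residual and 3.79 prior degrees of freedom. Tests were the BETL change, and that change minus the MATZ change. No count test was run, since FPKM values are not counts and read depth is not given. On simulated data for the BETL comparison over 24213 genes, 0, 11, 25 and 35 of 50 genes changed by log2 values of 1, 2, 3 and 4 were recovered, with 2 false calls.

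The comparison, the 38 gene lists and the rules were chosen with earlier results of these data known. Lists were matched by symbol or synonym, and 47 genes matched by a wrong sense of a symbol were taken out. They are described by counts and medians, with no test of a list. Named genes were drawn from the 15 largest called rises and 15 largest falls with a descriptive name, a mean of at least 10 FPKM and groups that do not overlap, the 10 most abundant genes at each age, the 4 most abundant tested members of each list, the other members of the transfer layer, meg and esr lists, and the 6 largest differences between tissues in each direction. The alternatives tried were pseudocounts of 0.1 and 5, no filter, a stricter filter (5 FPKM in 2 libraries), a filter on the mean (20 FPKM), quantile normalization, median-of-ratios scaling, a replicate block, fits on the compared groups or on the 6 BETL libraries alone, no mean trend, library weights and leaving out each library. Scaling without the 10 most abundant genes of each group was added after seeing the data. Figures were drawn with matplotlib 3.10.9 in Python 3.11.15, and tables made with pandas 2.3.3 and numpy 2.4.6.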

Additional observations from a re-analysis of the deposited data

Results flagged for a closer look

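Of the genes named in the text, 41 changed differently in BETL and in MATZ by limma's test of the difference itself (adjusted p from 0.00024 to 0.048). Values in parentheses are the change in BETL minus the change in MATZ from 8 to 20 DAP on the log2(FPKM + 1) scale, with 2 libraries in each group.

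The gap was positive in 11 genes. In chn1 (8.03) and NAR2.2 (3.74) it came from a fall in MATZ. Genes with the larger rise in BETL were bz15 (4.55), wx1 (3.81), glb3 (2.73) and GRMZM2G027392 (2.23). The change was above 0 in BETL and below 0 in MATZ for Ann5 (4.31), mde1 (4.09), tua4 (1.70), Atg8d (1.61) and gst1 (1.51). None of these 5 changes in MATZ was called.

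It was negative in 30 genes. Transcripts abundant in the layer had the larger positive change in MATZ in tcrr-1 (−4.79), AC196417.3_FG008 (−3.37), betl4 (−2.28), GRMZM5G897740 (−1.49) and GRMZM2G406552 (−1.46). The change was below 0 in BETL and above 0 in MATZ for CKX4 (−4.24), BURP7 (−3.75), SIP1-2 (−3.51), GH3 (−3.14), ccp1 (−2.91), zag2 (−2.81) and GRMZM2G072219 (−2.75). The same held for betl10 (−2.62), pip2b (−2.56), PIP2-1 (−1.91), dhn2 (−1.84) and SIP1-1 (−1.67), and the level of dhn2 was 94.3 and 83.7 and then 65.9 and 70.3 in BETL. Not all of these changes were called within a tissue. In BETL those of BURP7, betl10, dhn2 and SIP1-1 were not. In MATZ the change of PIP2-1 was not called (0.32 ± 0.22), and that of ccp1 was near 0 (0.05 ± 0.17). The change was below 0 in both tissues and lower in BETL for hyp1 (−4.72), Laccase-13 (−4.53), GRMZM2G166141 (−4.09), LAC1 (−2.99), bap2 (−2.67), GRMZM2G136364 (−2.63) and hsp18f (−2.57). Also in that class were MADS35 (−2.49), bZIP84 (−2.24), GRMZM2G150091 (−2.05), GRMZM2G039538 (−1.92) and his1a (−1.37). The gene esr1 (−7.05) was listed at 0 in MATZ at both ages. Sizes for bz15, wx1, glb3, Ann5, NAR2.2, tcrr-1 and esr1 depend on the pseudocount, since a group of each was listed at 0.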

How the results depend on the processing

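With 17 alternatives, the 2775 calls of the BETL comparison became 4398 with library weights and 900 to 2451 without 1 of the 4 compared libraries, where the lone library of a group is assumed to vary like the other groups. The remaining counts, from 1899 (mean FPKM of at least 20) to 3834 (compared groups alone), were within 1.5 times of it. The 565 calls of the difference between tissues became 1143 with a pseudocount of 0.1, 878 in the fit on the compared groups alone, 260 with no mean trend, and 227 to 1044 without 1 library. The cause of these moves was not tested, also where 1 library was left out. With the replicate block the counts were 2465 (1685 higher, 780 lower) and 406, and it ended no call of a gene named in the text. Deviations of same-numbered libraries from the group means correlated between −0.017 and 0.016, and at −0.0088 for BETL at 8 and 20 DAP. Whether such libraries share a plant, ear or batch is not stated in the labels and was not tested.

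Of the 89 called genes named in the text, 53 were called in each of the 17 alternatives that tested them. The largest loss was 27 calls without BETL 20 DAP replicate 1, 19 were lost in the fit on the compared groups alone, and 0 with a pseudocount of 5 or library weights. Uncalled genes that changed sign were AC196417.3_FG008 (−0.30 with median-of-ratios scaling and −0.035 when scaled without the 10 most abundant genes of each group) and, with quantile normalization, betl10 (0.16), EBE-1 (−0.035) and NAR2.2 (−0.34). Further lost calls by setting were as follows. On the 6 BETL libraries alone the adjusted p was 0.066 for BURP6, 0.059 for EBE-2, 0.12 for GRMZM2G046532, 0.081 for PER42, 0.098 for SIP1-2, 0.057 for ZIP4 and ole1, 0.11 for crr2, 0.050 for hon101, 0.055 for plr354a and 0.083 for zag2. In the fit on the compared groups alone it was 0.12 for BURP6, 0.053 for CKX5, 0.11 for GRMZM2G046532, 0.051 for SIP1-2, 0.070 for ae1, 0.18 for crr2, 0.083 for hon101, 0.10 for ole1 and 0.055 for zag2. With median-of-ratios scaling it was 0.052 for Atg8d, 0.22 for GRMZM2G046532, 0.073 for GRMZM5G843972, 0.077 for ae1, 0.080 for bt1 and 0.051 for ole1. With no mean trend it was 0.078 for Atg8d, 0.18 for GRMZM2G046532, 0.071 for GRMZM5G843972, 0.064 for PRO5, 0.065 for SIP1-2, 0.057 for ae1, 0.056 for crr2, 0.091 for his2a1, 0.11 for hon101 and 0.072 for zag2. With a pseudocount of 0.1 it was 0.15 for BURP6, 0.11 for EBE-2, 0.075 for ae1, 0.080 for bt1 and 0.16 for ole1. For ae1 and bt1 it was also 0.058 and 0.052 with no filter on low values, 0.077 and 0.15 with quantile normalization, and 0.060 and 0.055 when scaled without the 10 most abundant genes of each group, where betl4 had 0.071. Read depth is not given and can only be inferred from steps in the lowest FPKM values, where a larger step means fewer reads. The commonest ratio of such values to BETL 20 DAP replicate 1 was 4.87 and 2.77 in the BETL 8 DAP libraries. It was 4.49 and 1.68 in BETL at 14 DAP and 1.28 in BETL 20 DAP replicate 2. Depth was thus inferred to be lower at 8 than at 20 DAP, and its part in the calls was not tested. Of the 1940 rises, 906 are of genes listed at 0 in both 8 DAP libraries, and the part of detection in them was not tested.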
